A study of Arabidopsis thaliana with 12 samples.

Results

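The transcriptomes of *bli ire1a* seedlings and of *bli ire1b* seedlings were compared. Both carry the homozygous *bli-1* insertion in *BLISTER* (*BLI*), and each lacks a different copy of the ER stress sensor IRE1. All plants were *Arabidopsis thaliana* seedlings of the Columbia strain at day 12 by the labels (the study's methods give a later age), and *bli ire1a* (bli-1-/-ire1a-/-) was homozygous for the *ire1a* insertion, *bli ire1b* (bli-1-/-ire1b-/-) for the *ire1b* insertion. WT and *bli* (bli-1-/-), the remaining genotypes of the series, entered the same statistical model and serve below as reference levels. Each genotype is a single insertion line (or cross of such lines), grown in long days under normal conditions, and whole seedlings were harvested, so a lower content of a cell type and less RNA per cell cannot be told apart. There were 3 RNA-Seq libraries for each genotype, 6 of the 12 in the series for this comparison, and 20645 of the 33557 genes in the table had a mean of at least 0.5 FPKM and were tested. FPKM is the number of fragments counted on a transcript, scaled to its length and to the fragments mapped in the library.

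Proteins that fold badly in the endoplasmic reticulum (ER) trigger the unfolded protein response (UPR). In plants IRE1 is an ER membrane protein with a sensor in the ER lumen and a kinase and an RNase on the cytoplasmic side. Its RNase removes a stretch of the *bZIP60* mRNA, which then encodes a nuclear transcription factor that turns on genes for chaperones, disulfide isomerases, export and degradation of misfolded proteins. A second arm runs through bZIP28 and bZIP17, which are cut loose from the membrane in the Golgi. IRE1 also cleaves other mRNAs of secreted proteins. IRE1A and IRE1B are encoded by separate genes, and the comparison asks in which functions the *bli* background differs when it lacks either of them.

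Each targeted gene was lowest in its own mutant. *IRE1A* (AT2G17520) was at 5.68, 5.57 and 4.45 FPKM in the *bli ire1a* libraries and 21.7, 21.4 and 23.4 in those of *bli ire1b* (log2 difference -2.07, standard error 0.09, adjusted p = 4.15e-07 from limma). The other target, *IRE1B* (AT5G24360), was at 10.9, 9.95 and 9.66 FPKM in the *bli ire1a* libraries and 4.84, 5.34 and 4.56 in those of *bli ire1b* (log2 difference 1.04, standard error 0.09, adjusted p = 7.26e-05 from limma). In neither case did the libraries overlap, and fragments were still counted on the disrupted genes. *BLI* (AT3G23980), disrupted in both, was at 13.4, 8.94 and 9.35 FPKM against 11.8, 9.75 and 10.8 FPKM with overlapping libraries (adjusted p = 0.856 from limma). The total of all FPKM was between 972215 and 1022349 in the 6 libraries, and 22621 to 23025 genes were above 0. The table holds no read counts. Over weakly expressed genes the FPKM of a single fragment was 1.49 to 1.61 times as large in the other 5 libraries as in *bli ire1a* replicate 1, which was therefore the most deeply sequenced of the 6. On the log2 scale the libraries of *bli ire1a* correlated with each other at r = 0.951 to 0.959, those of *bli ire1b* at 0.954 to 0.959, and libraries of different double mutants at 0.937 to 0.949 (across 20645 genes, which are not independent replicates). As the marker of leaf tissue, 21 light-harvesting antenna genes summed to 100302 to 111615 FPKM in *bli ire1a* and 79845 to 86827 FPKM in *bli ire1b*, which do not overlap, and these genes are also described below as members of a list. The summed level of the floral genes *AG*, *AP1*, *AP3* and *PI* was 1.204 to 3.03 FPKM over the 6 libraries.

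Throughout, a difference is *bli ire1a* minus *bli ire1b* in log2(FPKM + 0.1), so a negative value means a lower level in *bli ire1a*, and the added 0.1 understates the change of weakly expressed genes. A gene is called higher or lower where its p from limma, adjusted over all tested genes by the Benjamini-Hochberg method, is 0.05 or less, whatever the fold change. By that rule 1538 genes (7.45% of those tested) had a higher level in *bli ire1a* and 1095 genes (5.3%) a lower one. Counts of called list members below are to be read beside these shares. With the cutoffs of the study, which are an unadjusted p up to 0.05 and a change of 2-fold or more either way (a ratio of 0.5 or less for a fall), 531 genes (2.57%) were higher and 218 (1.06%) lower. The split moved with scaling: quantile normalization gave 384 higher and 270 lower genes at the same cutoffs, which lowers the share of higher genes from 70.9% to 58.7%. With 3 libraries on each side, an exact permutation test (two-sided) reaches p = 0.1 at best, so all calls rest on limma's model of the spread. A limma fit of only the 6 libraries called 1184 higher and 885 lower genes by adjusted p. Of these, 1013 and 767 were shared with the joint fit.

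The genes higher in *bli ire1a* were mostly genes that *bli* expressed less than WT, and those lower in *bli ire1a* were mostly genes that *bli* expressed more. Of the 531 higher genes, 463 (87.2%) had a lower mean in *bli* than in WT, against 50.7% of all genes tested. Their median log2 difference from WT was -0.30 in *bli ire1a*, beside -1.08 in *bli* and -1.64 in *bli ire1b*. Of the 218 lower genes, 196 (89.9%) were above WT in *bli*, and the median was 0.26 in *bli ire1a*, beside 2.07 in *bli* and 1.81 in *bli ire1b*. These values share the WT libraries and are set side by side as levels. The genes were selected for a 2-fold gap between the double mutants. The gap between the medians of *bli ire1a* and *bli ire1b* therefore follows from the selection and is no separate result. Of the higher genes 48, and of the lower genes 37, had an FPKM of 0 in 1 or more of the 6 libraries, and the size of their difference is uncertain.

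**Figure D1:**
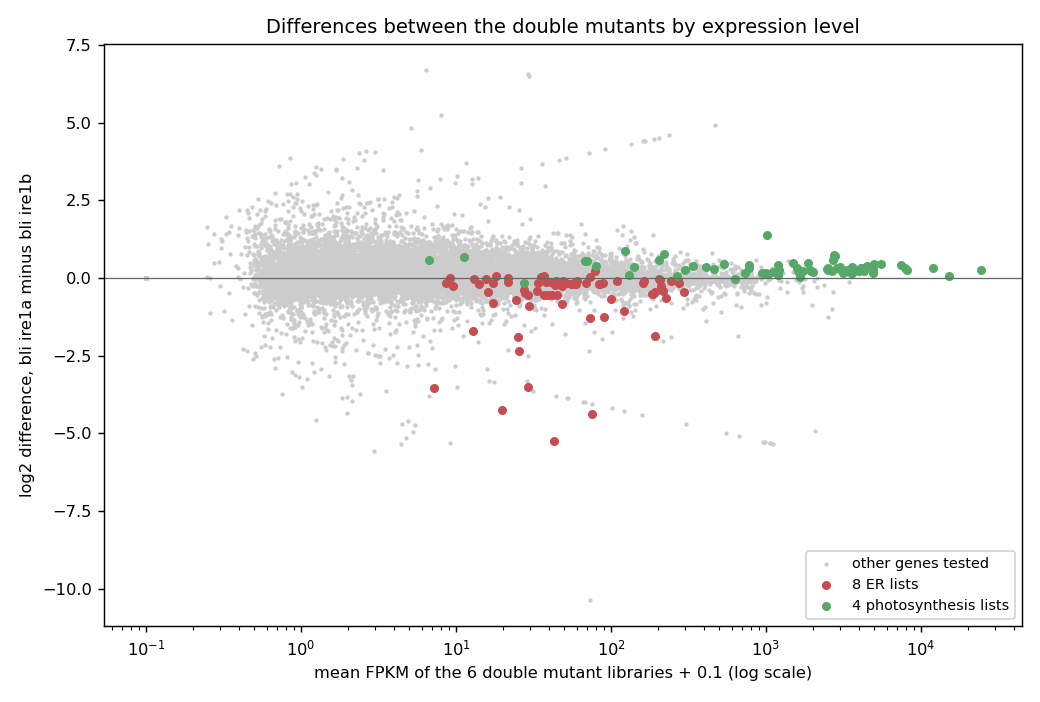
Each point is a gene, with the mean FPKM of the 6 double mutant libraries plus 0.1 on a log axis and the log2 difference, *bli ire1a* minus *bli ire1b*, on the vertical axis. Red marks the 74 tested genes of the ER lists, of which 68 lie below 0, and green the 72 genes of the photosynthesis lists, of which 70 lie above 0.

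Many genes of ER protein folding and export had lower levels in *bli ire1a*. Of 74 tested genes in 8 lists that cover UPR regulators, folding, degradation and export, 36 were lower in *bli ire1a* and 0 were higher (38 not called), and the median log2 difference was -0.21, against 0.00 over all genes tested. The libraries of the double mutants did not overlap for 52 of the 74 genes in the downward direction and for 1 in the upward direction, where 16.9% of all tested genes did not overlap downward and 17.5% upward. The number of lower genes was 30, 27 and 34 without *bli ire1a* replicates 1, 2 and 3 respectively, and 26, 31 and 30 without *bli ire1b* replicates 1, 2 and 3. Differences within the lists ranged from -5.25 to 0.24, and 12 of the 74 genes differed by at least 2-fold, all of them downward.

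Since bZIP60 and bZIP28 bind defined DNA elements, the 250 bases before the annotated start of each gene were read from the TAIR10.1 genome. The ER stress response element (ERSE) was searched as CCAAT, 10 bases of any kind and CACG, ERSE-II as ATTGGNCCACG and the unfolded protein response element (UPRE) as TGACGTGG or TGACGTGA, each on both strands. ERSE lay in 9 of the 36 promoters of ER-list genes that were lower in *bli ire1a* (25.0%) and in 2 of the 38 of genes not called (5.26%). Among promoters of tested protein-coding genes 171 of 19912 held it (0.859%). *NSF*, annotated as a transcribed pseudogene, is among the 36 but not among the 19912. UPRE lay in 5 of the 36 and 1 of the 38 promoters and in 418 (2.099%) of the 19912, ERSE-II in 0 of the 74 and in 15 of the 19912. The ER lists were chosen as genes of the UPR and of ER folding, so an excess of these elements over all promoters is no separate result. A match to the letters is not evidence of a site in use, and the windows of *NAC103*, *SARA1*, AT1G18830, *ERDJ3A* and *bZIP60*, all lower in *bli ire1a*, held none of these letters. Of the 11 ER-list promoters with ERSE, 5 were picked with the results known and are shown as examples, 4 of genes that were lower in *bli ire1a* and that of *P58IPK*, which was not called. They run 5′ to 3′ with the matching ends of each element in capitals (RefSeq, TAIR10.1).
*BiP3* (chr1:2931851-2932100, minus strand): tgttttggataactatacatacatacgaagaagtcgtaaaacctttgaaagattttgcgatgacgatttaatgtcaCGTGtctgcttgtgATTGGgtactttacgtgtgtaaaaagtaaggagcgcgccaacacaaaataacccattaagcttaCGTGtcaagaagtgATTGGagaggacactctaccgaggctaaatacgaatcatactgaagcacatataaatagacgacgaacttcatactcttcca
*PDIL1-2* (chr1:29126398-29126647, plus strand): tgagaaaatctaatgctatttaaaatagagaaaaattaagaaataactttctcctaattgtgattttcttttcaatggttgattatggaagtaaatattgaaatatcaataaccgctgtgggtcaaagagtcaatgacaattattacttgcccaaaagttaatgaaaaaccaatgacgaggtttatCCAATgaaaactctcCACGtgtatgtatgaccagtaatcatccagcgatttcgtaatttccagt
AT3G60540 (chr3:22375917-22376166, minus strand): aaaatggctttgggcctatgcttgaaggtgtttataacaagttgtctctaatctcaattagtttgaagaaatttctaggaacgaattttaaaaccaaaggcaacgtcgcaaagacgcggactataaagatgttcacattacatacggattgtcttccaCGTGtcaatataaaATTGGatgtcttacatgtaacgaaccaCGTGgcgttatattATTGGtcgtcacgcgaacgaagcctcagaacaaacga
AT4G16660 (chr4:9376449-9376698, plus strand): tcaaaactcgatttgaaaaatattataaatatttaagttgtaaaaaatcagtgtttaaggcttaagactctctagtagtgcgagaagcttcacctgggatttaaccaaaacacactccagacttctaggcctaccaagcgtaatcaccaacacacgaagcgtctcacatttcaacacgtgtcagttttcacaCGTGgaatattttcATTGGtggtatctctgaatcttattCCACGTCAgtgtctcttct
*P58IPK* (chr5:749851-750100, plus strand): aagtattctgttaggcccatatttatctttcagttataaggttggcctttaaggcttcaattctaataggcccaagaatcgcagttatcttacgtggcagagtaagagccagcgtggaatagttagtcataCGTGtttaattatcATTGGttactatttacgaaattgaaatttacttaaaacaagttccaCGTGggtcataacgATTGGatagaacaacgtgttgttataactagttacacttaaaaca
The elements start 174 and 96 bases before the start in *BiP3*, 64 in *PDIL1-2*, 92 and 51 in AT3G60540, 58 in AT4G16660, which also has UPRE at 19, and 119 and 59 in *P58IPK*. ERSE stands in the reverse orientation (CGTG first) in each of them apart from *PDIL1-2*.

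In the list of UPR regulators, which also holds the marker gene *NSF*, 5 of 7 were lower in *bli ire1a* and 0 higher (median -0.80). *NAC103* (AT5G64060), a NAC transcription factor downstream of bZIP60, was at 2.39, 1.6001 and 1.75 FPKM in the *bli ire1a* libraries and 41.2, 36.9 and 34.99 in those of *bli ire1b*, where WT had a mean of 0.688 and *bli* of 43.0 (log2 difference -4.25, standard error 0.19, adjusted p = 4.15e-07 from limma). *bli ire1b* was thus near the *bli* level, and *bli ire1a* was far below it but above the WT mean. *NSF* (AT4G21730), used in the study as a UPR marker and annotated as a transcribed pseudogene, was at 6.20, 7.10 and 7.46 FPKM in the *bli ire1a* libraries and 147, 145 and 139.9 in those of *bli ire1b* (log2 difference -4.37, standard error 0.25, adjusted p = 2.67e-06 from limma). For *bZIP60* (AT1G42990), whose spliced and unspliced forms are summed here, the libraries had 87.7, 80.3 and 70.1 FPKM against 177, 156 and 158 FPKM (log2 difference -1.05, standard error 0.18, adjusted p = 0.00368 from limma). The membrane-tethered factor *NAC089*, which promotes cell death under ER stress, differed by -0.80 (adjusted p = 0.000878 from limma) and *NAC062*, another membrane-tethered factor, by -0.71 (adjusted p = 0.0214 from limma). The *NAC062* call was lost without *bli ire1a* replicates 2 or 3 or *bli ire1b* replicates 1 or 3 (adjusted p between 0.0567 and 0.0834). *bZIP28*, with 19.0, 18.5 and 17.7 FPKM against 18.7, 16.5 and 18.0 FPKM, and *bZIP17*, with 13.7, 13.05 and 12.2 FPKM against 14.5, 14.7 and 15.4 FPKM, were not called (adjusted p = 0.714 and 0.0963 from limma).

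**Figure D2:**
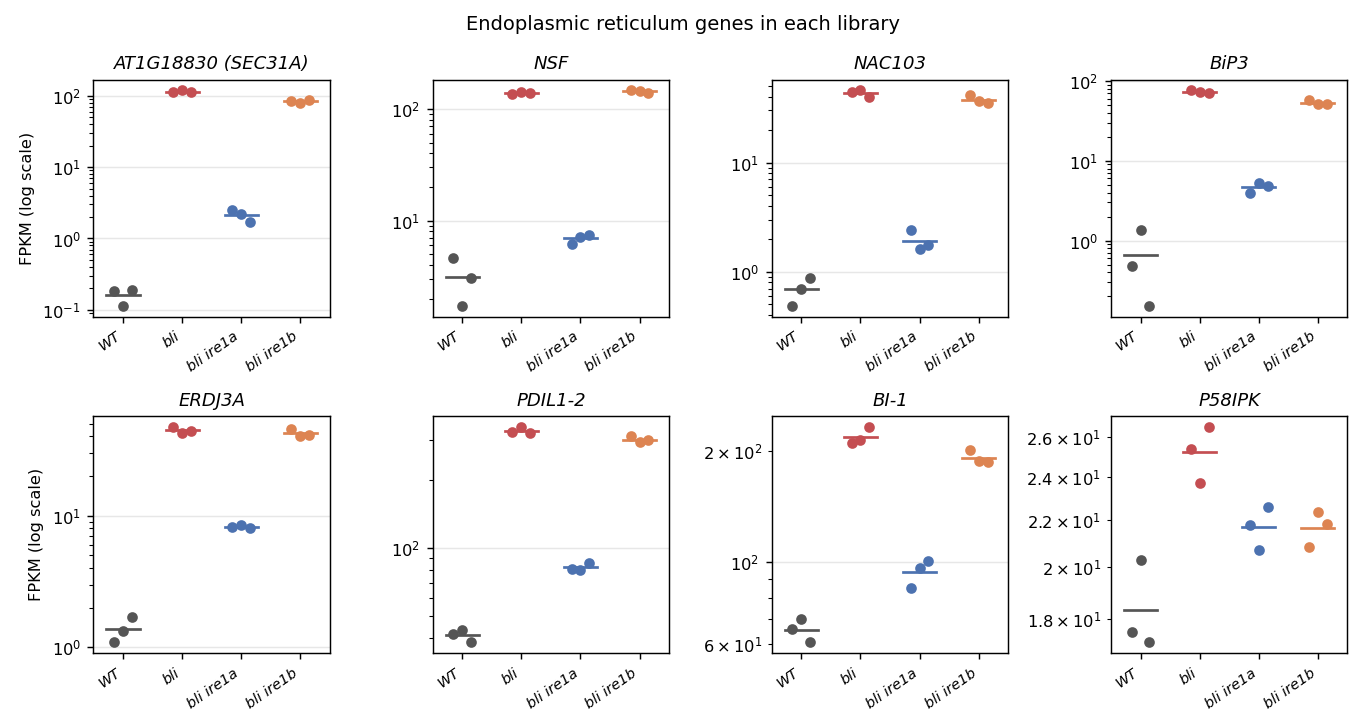
FPKM on a log axis of 8 ER genes in each of the 12 libraries, grouped by genotype, with a line at the mean of each genotype. In 7 panels the *bli ire1a* points lie below those of *bli* and *bli ire1b*; for *P58IPK*, at 20.7 to 22.6 FPKM in *bli ire1a* and 20.8 to 22.3 in *bli ire1b*, the points overlap.

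BiP chaperones and their J-domain partners bind unfolded proteins in the ER lumen. In this list 8 of 11 genes were lower in *bli ire1a* and 0 higher (median -0.42). *BiP3* (AT1G09080), the copy that is nearly silent without ER stress, was at 3.96, 5.24 and 4.81 FPKM in the *bli ire1a* libraries and 57.8, 51.4 and 51.6 in those of *bli ire1b* (log2 difference -3.50, standard error 0.45, adjusted p = 0.000858 from limma). Its means were 0.664 FPKM in WT and 72.8 in *bli*, and *bli ire1a* was above WT (log2 difference 2.99, adjusted p = 0.00190 from limma). *ERDJ3A* (AT3G08970), an ER J-domain protein, was at 8.18, 8.50 and 8.02 FPKM against 45.7, 40.3 and 41.2 FPKM (log2 difference -2.35, standard error 0.13, adjusted p = 1.74e-06 from limma). These large differences set *BiP3* and *ERDJ3A* apart from the abundant chaperones, which differed by less than 2-fold. *BiP1* had 172, 190.3 and 197 FPKM against 259.8, 242 and 244 FPKM (-0.42, adjusted p = 0.0115 from limma), *BiP2* had 153, 161 and 173 FPKM against 229, 221 and 212 (-0.44, adjusted p = 0.00381 from limma), and *SHD*, the ER-resident HSP90, had 249.5, 251 and 250.1 FPKM against 351, 342 and 337 (-0.45, adjusted p = 0.000135 from limma). *BiP1* and *BiP2* are near-identical copies whose reads may be split between them, and the *BiP1* call was lost without *bli ire1b* replicate 1 (adjusted p = 0.0517). AT4G16660, an HSP70 family protein with ERSE and UPRE in its promoter, differed by -0.67 (adjusted p = 2.36e-05 from limma), *ERDJ2B* by -0.40 and *ERDJ2A* by -0.25 (adjusted p = 0.00723 and 0.0235 from limma). The *ERDJ2A* call was lost without *bli ire1a* replicate 2 or *bli ire1b* replicates 1, 2 or 3 (adjusted p between 0.0617 and 0.0903). The other members were not called: *P58IPK* and *SDF2* overlapped between the mutants (adjusted p = 0.996 and 0.815 from limma), and *ERDJ3B*, with 61.5, 64.0 and 68.8 FPKM against 73.4, 72.3 and 73.5 FPKM, had adjusted p = 0.0815 from limma.

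Oxidative folding followed the same direction. Of 12 genes for protein disulfide isomerases, which form and reshuffle disulfide bonds, and for the oxidases ERO1 and ERO2 that recharge them, 8 were lower in *bli ire1a* and 0 higher (median -0.51). *PDIL1-2* (AT1G77510) was at 80.6, 80.1 and 85.5 FPKM in the *bli ire1a* libraries and 312, 293 and 300.2 in those of *bli ire1b* (log2 difference -1.88, standard error 0.06, adjusted p = 1.14e-08 from limma), with *bli* at 330.3 and WT at 41.1. *ERO1* (AT1G72280) had 5.26, 5.89 and 6.51 FPKM against 22.2, 17.9 and 18.5 FPKM (log2 difference -1.71, standard error 0.16, adjusted p = 0.000127 from limma), whereas *ERO2* (AT2G38960), with 12.96, 10.9 and 17.0 FPKM against 19.2, 17.2 and 18.18 FPKM, was not called (adjusted p = 0.0638 from limma). *PDIL2-3* and *PDIL2-2* were lower, with log2 differences of -1.26 and -0.89, as were *PDIL1-1*, *PDIL2-1* (AT2G47470) and *PDIL1-3* with -0.52, -0.50 and -0.54 (adjusted p at most 0.0184 from limma). The *PDIL1-3* call was lost without *bli ire1a* replicates 1 or 2 or *bli ire1b* replicates 1 or 3 (adjusted p between 0.0523 and 0.0689). *PDIL1-4*, with a difference of only -0.18 (adjusted p = 0.0459 from limma), lost its call in 10 of its 16 alternatives. *PDIL1-5*, *PDIL1-6* and *PDIL5-2* overlapped between the double mutants and were not called.

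In the calnexin and calreticulin cycle, which retains glycoproteins until they are folded, 1 of 6 genes was lower (2 without *bli ire1b* replicate 3). This was AT1G71220 (*EBS1*, also *UGGT*), the glucosyltransferase that marks unfolded glycoproteins, with 29.3, 29.2 and 26.2 FPKM against 38.7, 37.6 and 38.2 FPKM (log2 difference -0.43, standard error 0.06, adjusted p = 0.00107 from limma). The lectin *CNX1* had 186, 186 and 198 FPKM against 235, 225 and 223 FPKM and missed the threshold (adjusted p = 0.0522 from limma), *CRT1* (AT1G56340) and *CRT2* (AT1G09210) overlapped, and *CRT3* was the only member with non-overlapping libraries in the upward direction (83.8, 83.8 and 86.9 FPKM against 76.0, 64.9 and 75.6 FPKM, adjusted p = 0.107 from limma). ER-associated degradation exports misfolded proteins to the proteasome, and 4 of its 12 genes were lower in *bli ire1a*. These were *HRD3A* (AT1G18260), *DER1*, *OS9* and *HRD1B* (AT1G65040), with log2 differences of -0.53, -0.55, -0.55 and -0.48 (adjusted p at most 0.0151 from limma). The *HRD1B* call was lost without *bli ire1a* replicates 1 or 2 or *bli ire1b* replicate 1 (adjusted p between 0.0525 and 0.0655). *HRD1A*, the other ubiquitin ligase copy, had 9.07, 9.49 and 8.39 FPKM against 7.83, 10.4 and 9.02 FPKM and was not called, and neither was *CDC48A*, the ATPase that pulls substrates out of the membrane (adjusted p = 0.966 and 0.301 from limma).

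Export from the ER held the largest difference of all ER genes. AT1G18830 (*SEC31A*), a WD40 repeat subunit of the COPII vesicle coat, was at 2.53, 2.17 and 1.68 FPKM in the *bli ire1a* libraries and 85.1, 79.2 and 86.9 in those of *bli ire1b* (log2 difference -5.25, standard error 0.15, adjusted p = 1.11e-08 from limma). It had 0.161 FPKM in WT and 114 in *bli* on average. Its paralogue AT3G63460 (*SEC31B*), with 61.8, 59.4 and 47.0 FPKM against 63.6, 61.4 and 64.5 FPKM, overlapped between the double mutants (adjusted p = 0.204 from limma). *SARA1* (AT1G09180), a small GTPase of the SAR1 type that starts coat assembly, had 0.823, 1.44 and 0.884 FPKM against 14.98, 11.2 and 12.96 FPKM (log2 difference -3.55, standard error 0.33, adjusted p = 0.000119 from limma), with *bli* at 28.9, above all *bli ire1b* libraries. *SEC24B* (AT3G44340) and *SAR1B* were lower, with differences of -0.83 and -0.64 (adjusted p = 3.00e-05 and 3.66e-05 from limma), and the other 6 members of this list of 10 were not called. The 4 calls of the list were kept in number without each library in turn.

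Of 8 tested genes of the SEC61 translocon, the channel through which new proteins enter the ER, 4 were lower (2 without *bli ire1a* replicate 2 or *bli ire1b* replicate 1). AT1G29310, a SecY protein transport family protein, had 41.6, 40.7 and 44.9 FPKM against 107, 102 and 102 FPKM (log2 difference -1.29, standard error 0.07, adjusted p = 1.31e-06 from limma). AT3G60540, a Sec61-beta subunit with ERSE elements in its promoter, had 11.4, 7.62 and 12.4 FPKM against 48.8, 33.8 and 34.8 FPKM (log2 difference -1.90, standard error 0.32, adjusted p = 0.00364 from limma). The more abundant copies differed less: AT2G34250, also of the SecY family, had 147, 151 and 157 FPKM against 174, 165 and 170.1 FPKM (-0.16, adjusted p = 0.0441 from limma) and lost its call in 10 of its 16 alternatives. AT2G45070, also a Sec61-beta subunit, had 268, 263 and 269 FPKM against 282, 272 and 278 FPKM and was not called (adjusted p = 0.432 from limma). AT3G48570, of the gamma type, had a difference of -0.54 (adjusted p = 0.0175 from limma), a call lost without *bli ire1a* replicates 2 or 3 or *bli ire1b* replicate 1 (adjusted p between 0.0540 and 0.0704). All 8 oligosaccharyltransferase genes, whose products attach sugar chains to entering proteins, had negative differences between -0.21 and -0.10. The 2 that were called, *DGL1* and *HAP6* (adjusted p = 0.0340 and 0.0410 from limma), both lost the call without *bli ire1a* replicate 2 and in most other alternatives. Among 7 genes of ER stress survival and death, *BI-1* (AT5G47120), an ER membrane protein that restrains cell death, was the only one called, at 84.8, 96.1 and 101 FPKM in the *bli ire1a* libraries and 200.3, 188 and 186 in those of *bli ire1b* (log2 difference -1.03, standard error 0.08, adjusted p = 2.44e-05 from limma).

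Heat shock proteins of the cytosol and organelles were examined as folding genes outside the ER. Of 17 tested, 2 were higher in *bli ire1a* and 1 lower (11.8% and 5.88%, against 7.45% and 5.3% of all genes), with a median of 0.49. *HSP70-4* (AT3G12580), a stress-induced cytosolic HSP70, was higher (15.68, 15.03 and 12.5 FPKM against 5.86, 7.69 and 6.59 FPKM, log2 difference 1.09, standard error 0.20, adjusted p = 0.00590 from limma), as was *HSFB2A*, a heat shock factor (0.72, adjusted p = 0.0159 from limma). *HSP18.2*, a small cytosolic chaperone, was lower (-0.75, adjusted p = 0.0284 from limma). The *HSFB2A* call was lost without *bli ire1a* replicate 1 or *bli ire1b* replicate 2 (adjusted p between 0.0569 and 0.0593), and that of *HSP18.2* without each library other than *bli ire1a* replicate 1 (adjusted p up to 0.105).

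**Figure D3:**
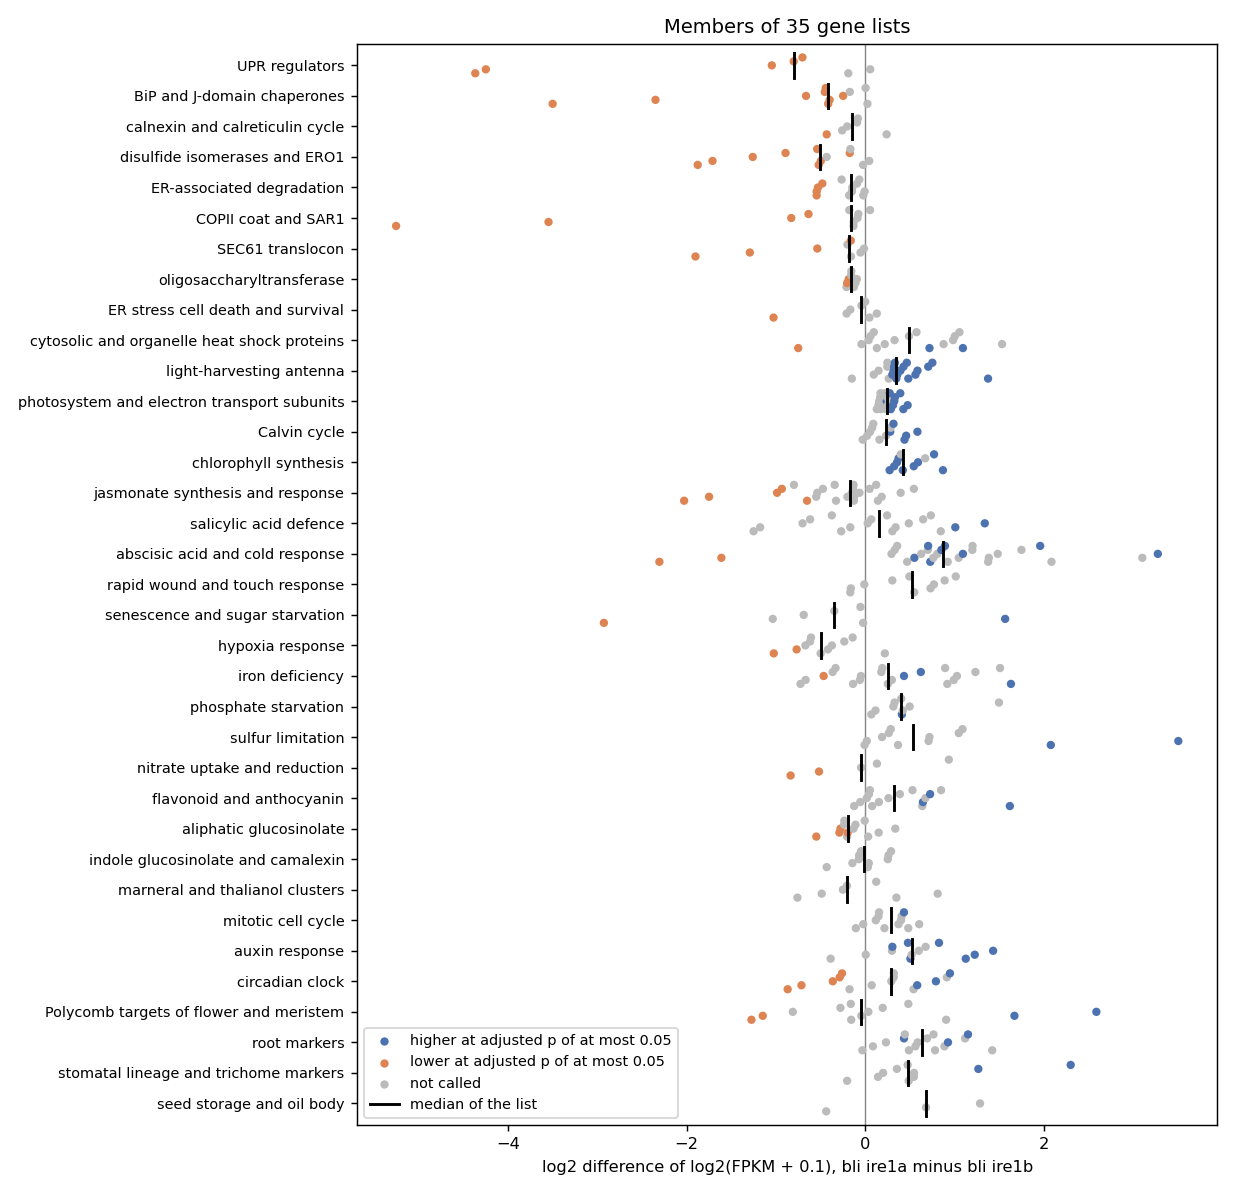
Each row is a gene list and each point a tested member, placed by its log2 difference, *bli ire1a* minus *bli ire1b*; colour gives the call at adjusted p of at most 0.05 and the black bar the median of the list. The medians of the ER lists pooled (-0.21) and of the photosynthesis lists pooled (0.28) lie on opposite sides of 0, with 6 of 74 ER genes above 0 and 2 of 72 photosynthesis genes below.

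Outside the ER lists, the largest falls included a family of proteins of unknown function. Of 19 tested genes annotated as DUF295 proteins, 7 were lower in *bli ire1a* and 1 was higher (median -0.54), a family that was picked after its values were seen. AT5G55270 was at 0.109, 0.840 and 0.331 FPKM in the *bli ire1a* libraries and 19.0, 19.2 and 14.8 in those of *bli ire1b*, with means of 0.177 in WT and 18.3 in *bli* (log2 difference -5.33, standard error 0.44, adjusted p = 4.67e-05 from limma). AT5G53240 and its neighbour AT5G53230, on chromosome 5, had 0.163, 0 and 0.247 FPKM against 10.2, 8.13 and 6.97 and 0.334, 0 and 0.303 FPKM against 8.21, 8.40 and 10.8 FPKM, differences of -5.33 and -5.14 (adjusted p = 2.44e-05 and 0.000246 from limma). These genes were at or near 0 in WT and in *bli ire1a* and expressed in *bli* and *bli ire1b*. The same held for AT5G54560, AT1G30170 and AT4G13680, with *bli ire1b* means of 3.64, 3.31 and 6.43 FPKM against 0.1004, 0.140 and 0.434 in *bli ire1a* (differences of -4.35, -3.88 and -3.63, adjusted p at most 0.000148 from limma). AT1G30160, which overlaps the end of AT1G30170, had a difference of -1.25 (adjusted p = 0.0321 from limma). The higher member was AT1G05540 (1.397, 1.16 and 0.814 FPKM against 0.347, 0.241 and 0.603 FPKM, 1.33, adjusted p = 0.0255 from limma). The higher count was 0 without *bli ire1a* replicates 1 or 2 or *bli ire1b* replicates 1 or 2. Members of the family are similar in sequence, and reads may be shared between them.

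The 15 largest falls comprised 6 of these genes, *NAC103*, *NSF* and AT1G18830 described above, and 6 other genes. *MT1B* (AT5G56795), a metallothionein that binds metal ions, was listed at 0, 0 and 0 FPKM in the *bli ire1a* libraries and 156, 66.7 and 216 in those of *bli ire1b*, where WT had a mean of 142 and *bli* of 191. It belongs to a family of near-identical copies, so its values are uncertain, and no fold is given against a group listed at 0. The F-box gene AT3G12840 and AT2G03040, of the p24 family of cargo receptors between ER and Golgi, were also listed at 0 in all *bli ire1a* libraries and had 3.05, 11.1 and 2.96 and 1.98, 2.93 and 1.96 FPKM in *bli ire1b*. AT4G05370, for which the annotation gives no product, had 0, 0.489 and 0.475 FPKM against 8.76, 10.9 and 10.2 FPKM (log2 difference -4.95, standard error 0.58, adjusted p = 0.000444 from limma). AT1G21528 and AT4G12735, uncharacterized proteins, differed by -4.75 and -3.72 (adjusted p = 0.0175 and 0.0127 from limma), and the AT1G21528 call was lost without *bli ire1a* replicates 2 or 3 or *bli ire1b* replicates 2 or 3 (adjusted p between 0.0546 and 0.0707).

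The largest rises had a different make-up. *RAB18* (AT5G66400), a dehydrin that protects cells in drought and responds to abscisic acid, was at 14.4, 18.8 and 21.4 FPKM in the *bli ire1a* libraries and 2.51, 1.37 and 1.61 in those of *bli ire1b*, with 18.7 in WT and 3.22 in *bli* (log2 difference 3.27, standard error 0.31, adjusted p = 0.000132 from limma). *EXPA8* (AT2G40610), an expansin that loosens cell walls, had 26.2, 41.7 and 31.4 FPKM against 5.53, 5.31 and 4.76 FPKM (log2 difference 2.62, standard error 0.23, adjusted p = 7.06e-05 from limma). AT2G47880, of the glutaredoxin family of thiol-disulfide enzymes, had 19.0, 21.8 and 25.5 FPKM against 1.24, 2.97 and 4.65 FPKM, with 33.0 in WT and 1.45 in *bli* (log2 difference 3.04, standard error 0.39, adjusted p = 0.000858 from limma). In each of these 3 genes the *bli ire1a* libraries lay above all those of *bli ire1b*, and the mean of *bli ire1a* lay between those of *bli* and WT. The uncharacterized AT1G13650 had 20.3, 25.8 and 18.3 FPKM against 1.06, 1.33 and 2.47 FPKM (log2 difference 3.72, standard error 0.31, adjusted p = 5.16e-05 from limma), and the same direction was found for *PRB1*, a basic pathogenesis-related protein (13.7, 5.03 and 11.8 FPKM against 1.06, 0.784 and 1.05 FPKM, 3.16, adjusted p = 0.00528 from limma). *GLN1;4*, a cytosolic glutamine synthetase, had 5.001, 5.13 and 5.37 FPKM against 0.522, 1.13 and 1.29 FPKM (2.37, adjusted p = 0.000296 from limma) and *SP1L5*, of a family that acts on microtubules, 2.47, 4.44 and 4.78 FPKM against 0.234, 1.08 and 0.463 (2.67, adjusted p = 0.00310 from limma).

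Several of the other large rises were of weakly expressed genes. *CLE26*, a signalling peptide precursor, had 3.92, 5.87 and 7.83 FPKM against 1.04, 1.13 and 0 FPKM (3.46, adjusted p = 0.0150 from limma). *SLAH1*, an anion channel, had 1.91, 3.32 and 2.89 FPKM against 0.396, 0.147 and 1.02 FPKM (2.41, adjusted p = 0.0115 from limma), and *RL5*, a small MYB-type protein, had 2.11, 1.88 and 2.36 FPKM against 0, 0.523 and 0 FPKM (3.58, adjusted p = 0.0114 from limma). The calls were lost for *CLE26* without *bli ire1a* replicates 2 or 3 (adjusted p between 0.0514 and 0.0523), and for *SLAH1* without *bli ire1a* replicate 2 (adjusted p = 0.0504). AT1G06980 and AT5G35777 were higher by 2.77 and 2.36 (adjusted p = 0.00540 and 0.00569 from limma), while AT5G46295, at 3.77, 1.90 and 2.44 FPKM against 1.33, 0 and 0 FPKM, lost its call in 11 of its 16 alternatives. AT5G03710 was listed at 0 in all *bli ire1b* libraries and at 4.04, 11.9 and 21.8 FPKM in *bli ire1a*, with means of 14.6 in WT and 12.7 in *bli*. The last of the 15, *FLC*, is described with the flowering genes.

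Many nuclear genes of photosynthesis were higher in *bli ire1a*, mostly by less than 2-fold (1 of 72 by at least 2-fold). Of 72 tested genes in 4 lists, 38 were higher and 0 lower, 70 had a positive difference, and the libraries of the double mutants did not overlap for 57 of them in the upward direction and for 0 in the downward direction (median 0.28), beside the 17.5% and 16.9% of all genes. The number of higher genes depended on the libraries: it was 19, 15 and 51 without *bli ire1a* replicates 1, 2 and 3 respectively, and 17, 28 and 25 without *bli ire1b* replicates 1, 2 and 3, and 17 when only the 6 libraries were fitted and 20 with no filter on low values. The median stayed between 0.23 and 0.34 over all alternatives.

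The antenna proteins, which bind chlorophyll and funnel light to the photosystems, accounted for 15 of the 38 calls among 21 genes (median 0.34). Their number was 6 without *bli ire1a* replicate 2, 7 without *bli ire1b* replicate 1, and 8 without *bli ire1a* replicate 1. *LHCB2.3* (AT3G27690) differed most, with 1357, 1682 and 1345 FPKM in the *bli ire1a* libraries and 507, 552 and 632 in those of *bli ire1b* (log2 difference 1.37, standard error 0.12, adjusted p = 6.23e-05 from limma). *LHCB2.2* and *LHCB2.1* had 3511, 3631 and 3198 FPKM against 2048, 2168 and 1938 and 3283, 3949 and 3163 FPKM against 1906, 2284 and 2189 FPKM (0.75 and 0.70, adjusted p = 0.00142 and 0.00326 from limma). These copies are similar in sequence and their reads may be split. *LHCB4.2*, a minor antenna protein, had 2168, 2287 and 2077 FPKM against 1439, 1601 and 1649.5 FPKM (0.48, adjusted p = 0.00410 from limma). In chlorophyll synthesis 9 of 11 genes were higher (median 0.42, and their number was 5 without *bli ire1a* replicate 2), among them *CAO* (AT1G44446), which converts chlorophyll a to chlorophyll b, with 159, 177 and 140.3 FPKM against 80.7, 86.3 and 93.5 FPKM (log2 difference 0.87, standard error 0.08, adjusted p = 0.000129 from limma). *GUN4*, a cofactor of magnesium chelatase, had 284, 306 and 241 FPKM against 155, 153 and 179 FPKM (0.77, adjusted p = 0.000770 from limma), and *HEMA1*, the entry enzyme of the pathway, 239.9, 266 and 223 FPKM against 154, 175 and 156 (0.59, adjusted p = 0.00102 from limma). Means in WT were above both double mutants for these genes, for *CAO* at 198, for *GUN4* at 407 and for *HEMA1* at 324 FPKM.

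All 27 photosystem and electron transport subunits had positive differences, between 0.13 and 0.47, and 9 passed the test. That number was 3 without *bli ire1a* replicates 1 or 2 or *bli ire1b* replicate 1, 5 without *bli ire1b* replicate 3, and 20 without *bli ire1a* replicate 3. The 9 included plastocyanin *PETE1* (379.7, 408 and 368 FPKM against 285, 286 and 312 FPKM, 0.39, adjusted p = 0.00147 from limma), *PSAD2* of photosystem I (0.47, adjusted p = 0.00353 from limma) and *PSBS*, which dissipates excess light (0.42, adjusted p = 0.00439 from limma). In the Calvin cycle 5 of 13 genes were higher, such as the Rubisco small subunit *RBCS2B* (3839, 3143 and 2800.0 FPKM against 2302, 2223 and 1972 FPKM, 0.58, adjusted p = 0.00658 from limma). The *RBCS2B* call was lost when only the 6 libraries were fitted (adjusted p = 0.0508 from limma). The Calvin cycle number was 1 without *bli ire1a* replicates 1 or 2 or *bli ire1b* replicate 1, 2 without *bli ire1b* replicate 3, and 3 without *bli ire1b* replicate 2. Of 88 tested genes encoded in the plastid itself 0 were called in either direction (median -0.31, lowest adjusted p = 0.0558 from limma), and 1 was higher and 2 were lower at an unadjusted p of at most 0.05. Their summed level varied widely among libraries, from 1317 to 4373 FPKM in *bli ire1a* and from 1656 to 15848 in *bli ire1b*. Of the 31 mitochondrial genes 0 were called (median -0.34, lowest adjusted p = 0.129 from limma), with 0 higher and 2 lower at an unadjusted p of at most 0.05. Among ribosomal proteins, 1 of 9 chloroplast and 2 of 85 cytosolic genes were lower (11.1% and 2.35%, against 5.3% of all genes). The cytosolic number was 1 without *bli ire1a* replicates 1 or 2 or *bli ire1b* replicates 1, 2 or 3.

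**Figure D4:**
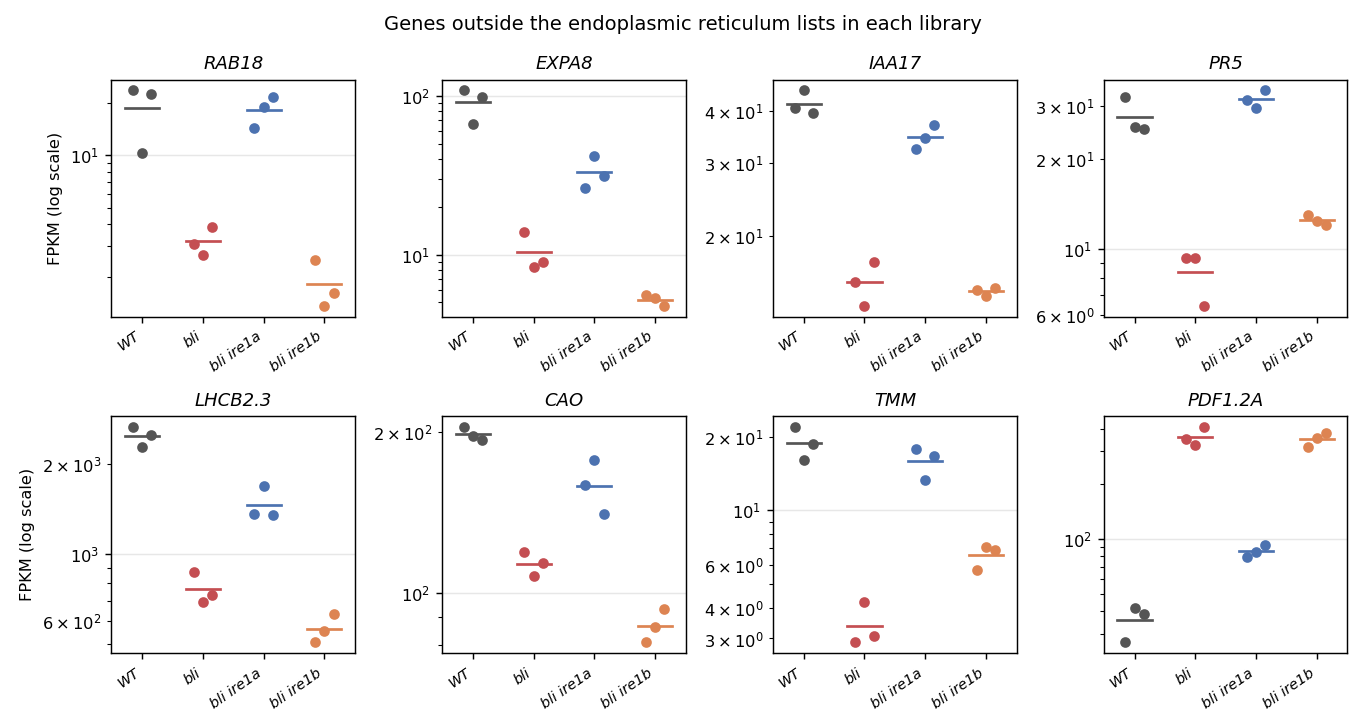
FPKM on a log axis of 8 genes outside the ER lists in each of the 12 libraries, with a line at the mean of each genotype. *bli ire1a* lies above *bli ire1b* in all libraries for 7 genes and below it for the defensin gene *PDF1.2A*.

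Some families of cell wall expansion and auxin response had more members higher than lower in *bli ire1a*. Other cell wall families lay near the shares of all genes (7.45% higher and 5.3% lower). Extensins were higher in 3 and lower in 2 of 43 cases (6.98% and 4.65%), and pectin methylesterases in 5 and 4 of 53 (9.43% and 7.55%). Of 22 expansin genes 8 were higher and 0 lower (median 0.43), a number between 7 and 9 without each library in turn. Besides *EXPA8*, *EXPA11* had 24.1, 27.0 and 23.54 FPKM against 9.12, 9.65 and 10.14 FPKM (1.36, adjusted p = 0.000197 from limma), *EXPB1* 4.89, 8.27 and 7.30 FPKM against 1.599, 1.85 and 1.19 (2.06, adjusted p = 0.000238 from limma) and *EXLB1* 9.77, 11.7 and 10.2 FPKM against 3.49, 2.84 and 4.202 (1.57, adjusted p = 0.000333 from limma). For each of them *bli ire1a* lay between *bli* and WT, whose *EXPA11* means were 12.2 and 56.1. Xyloglucan endotransglucosylases, which cut and rejoin wall polymers, had 5 of 26 higher and 1 lower (higher 3 without *bli ire1a* replicate 2 or *bli ire1b* replicates 1 or 3). *XTH17*, *XTH6* and *XTH10* were higher by 1.36, 1.08 and 1.61 (adjusted p at most 0.00324 from limma), and *XTH24* was lower, with 337, 257 and 220.0 FPKM against 418, 465 and 418 FPKM (-0.70, adjusted p = 0.0150 from limma), a call lost without *bli ire1a* replicates 2 or 3 or *bli ire1b* replicate 2 (adjusted p between 0.0501 and 0.0567).

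Aux/IAA proteins are auxin-induced repressors of the auxin response, and 7 of 13 tested were higher in *bli ire1a* and 0 lower (median 0.52). The number was 4, 5 and 5 without *bli ire1a* replicates 1, 2 and 3 respectively, and 4, 6 and 4 without *bli ire1b* replicates 1, 2 and 3. *IAA17* (AT1G04250) had 32.4, 34.4 and 36.8 FPKM in the *bli ire1a* libraries and 14.8, 14.3 and 15.03 in those of *bli ire1b* (log2 difference 1.22, standard error 0.09, adjusted p = 2.44e-05 from limma), and its means in WT and *bli* were 41.6 and 15.5. *IAA14* and *IAA3* differed by 1.43 and 1.12 (adjusted p = 0.000675 and 0.000973 from limma). Aquaporins, the water channels of the plasma membrane and vacuole, were higher in 9 of 27 cases (33.3%, against 7.45% of all genes) and lower in 0. Examples were *PIP2B* with 149.7, 184 and 174 FPKM against 64.2, 96.8 and 93.6 FPKM (1.02, adjusted p = 0.0101 from limma) and *PIP1C* with 379, 377 and 368 FPKM against 236, 266 and 254 (0.57, adjusted p = 0.00355 from limma). The number of higher aquaporins was 4 without *bli ire1a* replicate 2 or *bli ire1b* replicate 1, and 6 without *bli ire1a* replicate 1.

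Histone genes, most of which are transcribed as DNA is replicated, were higher in 18 of 44 cases and lower in 0 (median 0.32), and 42 of 44 differences were positive. *HTA13*, a histone H2A, had 102, 81.5 and 113 FPKM against 66.6, 64.2 and 59.3 FPKM (0.63, adjusted p = 0.00413 from limma), and AT5G59690, of the histone superfamily, 299, 278 and 320.3 FPKM against 219, 207 and 201 (0.52, adjusted p = 0.00111 from limma). Histone copies share long identical stretches, so their reads may be split, and the number of higher genes was between 11 and 22 without each library in turn. It was 11 without *bli ire1a* replicate 1 or *bli ire1b* replicate 3. Of 12 genes for cyclins and other regulators of mitosis 1 was higher (8.33%, against 7.45% of all genes). This was *CYCA1;1* (0.43, adjusted p = 0.0458 from limma), a call lost in 10 of its 16 alternatives. The cytokinesis syntaxin *KNOLLE* (AT1G08560), with 57.5, 54.8 and 56.6 FPKM against 44.4, 45.2 and 32.8 FPKM, missed the threshold (adjusted p = 0.0528 from limma).

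Markers of the stomatal lineage and of trichomes had 2 of 10 members higher and 0 lower (1 without *bli ire1a* replicates 1, 2 or 3 or *bli ire1b* replicates 1 or 2), and their summed level was 59.0 to 69.3 FPKM in *bli ire1a* and 40.2 to 43.8 in *bli ire1b*. None of the 10 was listed at 0 in all libraries of a genotype. *TMM* (AT1G80080), a receptor of stomatal patterning, had 17.9, 13.2 and 16.7 FPKM in the *bli ire1a* libraries and 5.71, 7.06 and 6.91 in those of *bli ire1b*, with 18.8 in WT and 3.39 in *bli* (log2 difference 1.26, standard error 0.17, adjusted p = 0.00113 from limma). The trichome regulator *GL1* (AT3G27920) had 1.46, 1.01 and 1.39 FPKM against 0, 0.197 and 0.634 FPKM (2.295, adjusted p = 0.0368 from limma) and lost its call in 8 of its 15 alternatives. Root markers had summed levels of 1312 to 1590 FPKM in *bli ire1a* and 1090 to 1497 in *bli ire1b*, which overlap, and 0 members listed at 0 throughout a genotype. Among the 16 members 3 were higher (18.75%, against 7.45% of all genes) and 0 lower, with a median of 0.64. The higher members were *CASP2*, *CASP1* and *SHR* (adjusted p = 0.0196, 0.0482 and 0.0164 from limma). The number of higher root markers was 4, 0 and 1 without *bli ire1a* replicates 1, 2 and 3 respectively, and 0, 5 and 1 without *bli ire1b* replicates 1, 2 and 3. Of 3 tested seed storage genes 0 were called, and 0 had an unadjusted p of at most 0.05 (lowest adjusted p = 0.689 from limma).

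Hormone and defence genes went in both directions. In the jasmonate list 5 of 24 genes were lower in *bli ire1a* (20.8%, against 5.3% of all genes) and 0 higher. *PDF1.2A* (AT5G44420), a secreted antifungal defensin induced by jasmonate and ethylene, was at 79.4, 85.0 and 92.1 FPKM in the *bli ire1a* libraries and 316, 356 and 377 in those of *bli ire1b*, with 36.0 in WT and 361 in *bli* (log2 difference -2.03, standard error 0.15, adjusted p = 2.36e-05 from limma). Of 19 tested genes annotated as defensins, *PDF1.2A* among them, 6 were lower and 0 higher, and this number was 6 without each library in turn. The family was picked after its values in these libraries were seen, so its count is no separate support. *PDF1.2B*, *PDF1.2C*, *PDF1.3* and *PDF1.4* differed by -1.75, -2.35, -1.88 and -1.69 (adjusted p at most 0.00558 from limma). They are small, similar genes, some of them adjacent, and their reads may be shared. Of the jasmonate biosynthesis enzymes, *LOX2* had 235, 335 and 219 FPKM against 507, 469 and 569.7 FPKM (-0.99, adjusted p = 0.00833 from limma) and *AOC2* 315, 308 and 219.8 FPKM against 535, 535 and 523 (-0.94, adjusted p = 0.00363 from limma). None of the 10 *JAZ* repressors in the list was called, nor was *MYC2*, a central transcription factor of the pathway.

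Of 18 genes of salicylic acid defence 2 were higher (11.1%, against 7.45% of all genes) and 0 lower. *PR5* (AT1G75040), a secreted thaumatin-like protein, had 31.4, 29.5 and 33.7 FPKM in the *bli ire1a* libraries and 12.9, 12.4 and 11.97 in those of *bli ire1b* (log2 difference 1.33, standard error 0.14, adjusted p = 0.000238 from limma), the level of WT at 27.6 against 8.36 in *bli*. *WRKY70*, at 14.0, 15.1 and 15.998 FPKM against 11.5, 5.75 and 6.17 FPKM (1.005, adjusted p = 0.0216 from limma), lost its call without *bli ire1a* replicates 2 or 3 or *bli ire1b* replicates 2 or 3 (adjusted p between 0.0643 and 0.0818). In the WRKY family as a whole, 4 of 58 genes were higher and 5 lower (6.90% and 8.62%, against 7.45% and 5.3% of all genes). Among the lower were *WRKY57* (13.6, 16.3 and 14.3 FPKM against 26.3, 25.8 and 25.7 FPKM, -0.81, adjusted p = 0.000227 from limma) and *WRKY45* (22.9, 22.3 and 23.4 FPKM against 35.5, 35.3 and 40.4 FPKM, -0.69, adjusted p = 0.000377 from limma). The family had 2 without *bli ire1a* replicates 2 or 3 or *bli ire1b* replicates 2 or 3 on the higher side, and on the lower 2 without *bli ire1a* replicate 2, and 3 without *bli ire1b* replicate 2.

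In the abscisic acid and cold list 8 of 28 genes were higher and 2 lower (28.6% and 7.14%, against 7.45% and 5.3% of all genes). This list had the highest median of the lists with more than 3 tested genes (0.87), and 26 of the 28 differences were positive. The number of higher genes was 8, 3 and 5 without *bli ire1a* replicates 1, 2 and 3 respectively, and 4, 5 and 6 without *bli ire1b* replicates 1, 2 and 3, and the lower genes were 1 without *bli ire1a* replicate 1 or *bli ire1b* replicate 3. Besides *RAB18*, the dehydrin *XERO2* had 61.4, 78.8 and 83.0 FPKM against 34.6, 43.7 and 41.7 FPKM (0.89, adjusted p = 0.00142 from limma) and *ABF3*, a transcription factor of abscisic acid signalling, 26.2, 28.04 and 27.9 FPKM against 15.2, 17.5 and 17.78 (0.70, adjusted p = 0.00968 from limma). The lower members were *LTP4* (4.02, 10.4 and 5.78 FPKM against 15.2, 33.6 and 59.6 FPKM, -2.31, adjusted p = 0.0104 from limma), which lost its call when only the 6 libraries were fitted, and its neighbour *LTP3* (-1.61, adjusted p = 0.0196 from limma). Both encode lipid transfer proteins, and *LTP2* was lower as well, with 334, 335 and 315 FPKM against 772, 636 and 694 FPKM, 162 in WT and 947 in *bli* (log2 difference -1.09, standard error 0.10, adjusted p = 9.68e-05 from limma). In the whole lipid-transfer family, 10 of 65 genes were higher and 6 lower (15.4% and 9.23%, against 7.45% and 5.3% of all genes). The higher were 4 without *bli ire1a* replicate 2, 5 without *bli ire1a* replicate 3 or *bli ire1b* replicate 3, and 6 without *bli ire1b* replicate 1.

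Of 15 clock genes tested, 5 were lower and 3 higher in *bli ire1a*. The lower genes, *PRR5*, *LUX*, *GI*, *ELF3* and *TOC1*, are expressed toward evening, and *PRR5* had 25.2, 20.8 and 19.4 FPKM against 38.8, 42.2 and 38.3 FPKM (log2 difference -0.87, standard error 0.10, adjusted p = 0.000431 from limma) and *LUX* (AT3G46640) 23.1, 24.4 and 26.3 FPKM against 41.1, 42.0 and 38.1 (-0.72, adjusted p = 0.00808 from limma). *CCA1*, *RVE8* and *LNK1*, expressed around dawn, were the higher genes, with differences of 0.79, 0.94 and 0.58 (adjusted p = 0.0458, 0.0324 and 0.0208 from limma). The numbers were small and unsteady: the lower genes were 4, 3 and 2 without *bli ire1a* replicates 1, 2 and 3 respectively, and 2, 2 and 3 without *bli ire1b* replicates 1, 2 and 3, and the higher genes were 0, 0 and 4 without *bli ire1a* replicates 1, 2 and 3 respectively, and 0, 1 and 1 without *bli ire1b* replicates 1, 2 and 3. The hour of harvest was not given in the sources used here, so a difference in sampling time and in the clock cannot be told apart.

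Polycomb proteins silence flowering and floral organ genes in seedlings, and BLI is known as a partner of the Polycomb protein CLF. Of 13 tested targets 2 were higher and 2 lower in *bli ire1a* (15.4% each, against 7.45% and 5.3% of all genes). The floral repressor *FLC* (AT5G10140) had 2.31, 2.66 and 3.86 FPKM against 0.695, 0.132 and 0.566 FPKM, with 4.0998 in WT and 0.220 in *bli* (log2 difference 2.58, standard error 0.60, adjusted p = 0.0179 from limma), and its paralogue *MAF5* 7.37, 6.55 and 9.17 FPKM against 2.102, 2.49 and 2.43 (1.67, adjusted p = 0.000372 from limma). In the opposite direction, *FT* (AT1G65480), the mobile signal that induces flowering, had 4.84, 4.28 and 4.77 FPKM in the *bli ire1a* libraries and 9.31, 12.5 and 12.5 in those of *bli ire1b* (log2 difference -1.28, standard error 0.25, adjusted p = 0.00825 from limma), with means of 0.561 in WT and 9.67 in *bli*. The floral organ gene *SEP3* had 13.5, 12.8 and 7.37 FPKM against 24.5, 26.0 and 22.1 FPKM (-1.15, adjusted p = 0.0161 from limma). The *FLC* call was lost without *bli ire1a* replicates 2 or 3 or *bli ire1b* replicate 2 (adjusted p between 0.0539 and 0.0596), and that of *SEP3* without *bli ire1b* replicates 1 or 2 (adjusted p between 0.0545 and 0.0570).

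Among nutrient and metabolic lists few genes were called. In the iron list *FRO2*, the root ferric reductase, was higher with 2.93, 4.40 and 3.47 FPKM against 0.805, 1.16 and 1.36 FPKM (log2 difference 1.63, standard error 0.27, adjusted p = 0.00372 from limma). *NAS1* and the iron store *FER1* were also called higher and *FRO3* lower (adjusted p between 0.0158 and 0.0181 from limma), each of these 3 losing its call without at least 2 of the libraries. Of 12 sulfur limitation genes 2 were higher (16.7%). These were *SDI1* (AT5G48850) at 1.27, 3.02 and 1.34 FPKM against 0.307, 0.569 and 0.203 and *LSU1* at 2.78, 5.28 and 0.687 FPKM against 0.742, 0 and 0 FPKM (adjusted p = 0.0128 and 0.0249 from limma). Neither call was kept without *bli ire1a* replicate 2 or without *bli ire1b* replicate 3. The nitrate reductases were lower, *NIA1* with 280.2, 195 and 192 FPKM against 439.7, 399 and 342 FPKM (-0.84, adjusted p = 0.00425 from limma) and *NIA2* with 598, 550.5 and 456 FPKM against 766, 779.8 and 741 (-0.52, adjusted p = 0.0181 from limma). The call of *NIA2* was lost without *bli ire1a* replicate 3 or *bli ire1b* replicates 1 or 2 (adjusted p between 0.0575 and 0.0613). In the hypoxia list 2 of 11 genes were lower. *PDC2*, a pyruvate decarboxylase of fermentation, had 42.9, 45.3 and 44.6 FPKM against 73.5, 74.97 and 78.4 FPKM (log2 difference -0.77, standard error 0.05, adjusted p = 8.57e-06 from limma), and *PGB1* (AT2G16060), a haemoglobin that scavenges nitric oxide, 61.3, 70.0 and 77.0 FPKM against 153, 126 and 145 (-1.03, adjusted p = 0.0103 from limma). Both were also above *bli*, whose means were 56.8 and 53.7 FPKM, in *bli ire1b*.

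In flavonoid synthesis 3 of 16 genes were higher (18.75%, against 7.45% of all genes), and 1 without *bli ire1a* replicates 2 or 3 or *bli ire1b* replicate 1. *F3H* was at 13.3, 13.8 and 16.6 FPKM against 7.91, 9.45 and 10.6 FPKM (0.64, adjusted p = 0.00632 from limma). In aliphatic glucosinolate synthesis 4 of 13 were lower (30.8%, against 5.3% of all genes) and 0 higher. *FMOGS-OX1* (AT1G65860) was at 18.8, 16.6 and 16.2 FPKM against 28.3, 24.5 and 23.1 FPKM (-0.55, adjusted p = 0.0116 from limma). The number of lower genes was 0 without *bli ire1b* replicate 1, 3 without *bli ire1a* replicate 1, and 1 without each other library. Of 10 genes for indole glucosinolates and camalexin, 7 for marneral and thalianol and 10 of the rapid wound and touch response, 0 were called by limma. At an unadjusted p of at most 0.05, 1 of the wound and touch genes was higher, the calmodulin-like *TCH2* (adjusted p = 0.0501 from limma), and 0 of the others passed that threshold. In the senescence and starvation list *NAP*, a NAC factor of leaf senescence, was higher (11.1, 15.5 and 10.4 FPKM against 3.15, 3.60 and 5.83 FPKM, 1.56, adjusted p = 0.00404 from limma) and the sugar-starvation gene *DIN2* lower (0.129, 0.445 and 0.0488 FPKM against 1.61, 1.01 and 4.18 FPKM, -2.93, adjusted p = 0.00697 from limma). Of the enzyme families, cytochrome P450 genes were higher in 20 of 165 cases and lower in 7 (12.1% and 4.24%, against 7.45% and 5.3% of all genes). The higher were 9 without *bli ire1a* replicate 2, and 13 without *bli ire1b* replicate 1, and the lower 4 without *bli ire1a* replicate 2 or *bli ire1b* replicate 3. UDP-glycosyltransferases were higher in 9 and lower in 9 of 107 cases (8.41% each, against 7.45% and 5.3% of all genes), and a fit without 1 library gave 4 to 6 higher and 1 to 6 lower, the fewest without *bli ire1b* replicate 1. Glutathione S-transferases were higher in 9 and lower in 3 of 52 cases (17.3% and 5.77%), and peroxidases in 6 and 5 of 59 (10.2% and 8.47%). The higher glutathione S-transferases were 3 without *bli ire1a* replicate 2 or *bli ire1b* replicate 1, and 4 without *bli ire1a* replicate 3 or *bli ire1b* replicate 3, and the lower 0 without *bli ire1b* replicate 3, and 1 without *bli ire1a* replicate 2 or *bli ire1b* replicate 1. The higher peroxidases were 2 without *bli ire1a* replicate 3 or *bli ire1b* replicates 1 or 2, and 3 without *bli ire1a* replicate 2 or *bli ire1b* replicate 3, and the lower 2 without *bli ire1a* replicates 1 or 3 or *bli ire1b* replicates 1 or 3, and 3 without *bli ire1a* replicate 2. The glycosyltransferase AT3G55700 had 1.98, 1.34 and 1.44 FPKM against 13.3, 9.91 and 11.0 FPKM (log2 difference -2.78, standard error 0.26, adjusted p = 0.000101 from limma), and the brassinosteroid hydroxylase *CPD* 109, 108 and 96.6 FPKM against 76.5, 79.5 and 81.4 (0.40, adjusted p = 0.00219 from limma).

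Set against WT, the lists show on which side of the comparison each difference lies. For UPR regulators the median log2 difference from WT was 1.42 in *bli*, against 0.25 in *bli ire1a* and 0.94 in *bli ire1b*, and for disulfide isomerases 0.77, 0.39 and 0.91. The antenna genes had -0.80, -0.34 and -0.70, and the auxin list -1.30, -0.18 and -1.04. In these lists the median of *bli ire1a* was the nearest to WT of the 3 mutants. The hypoxia median of *bli ire1a* was also the nearest, at 0.31, but the other mutants lay on opposite sides of WT (*bli* -0.55, *bli ire1b* 0.72). Not every list had this order. Root markers had -0.16, -0.17 and -0.81, with *bli* and *bli ire1a* about equally near to WT. For sulfur limitation the values were -0.28, -0.90 and -1.07, with *bli* the nearest. Aliphatic glucosinolate genes had -0.09, -0.56 and -0.15, with *bli ire1a* the farthest from WT. The WT libraries are shared by these values of all 3 mutants, so their medians are not independent of each other.

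**Figure D5:**
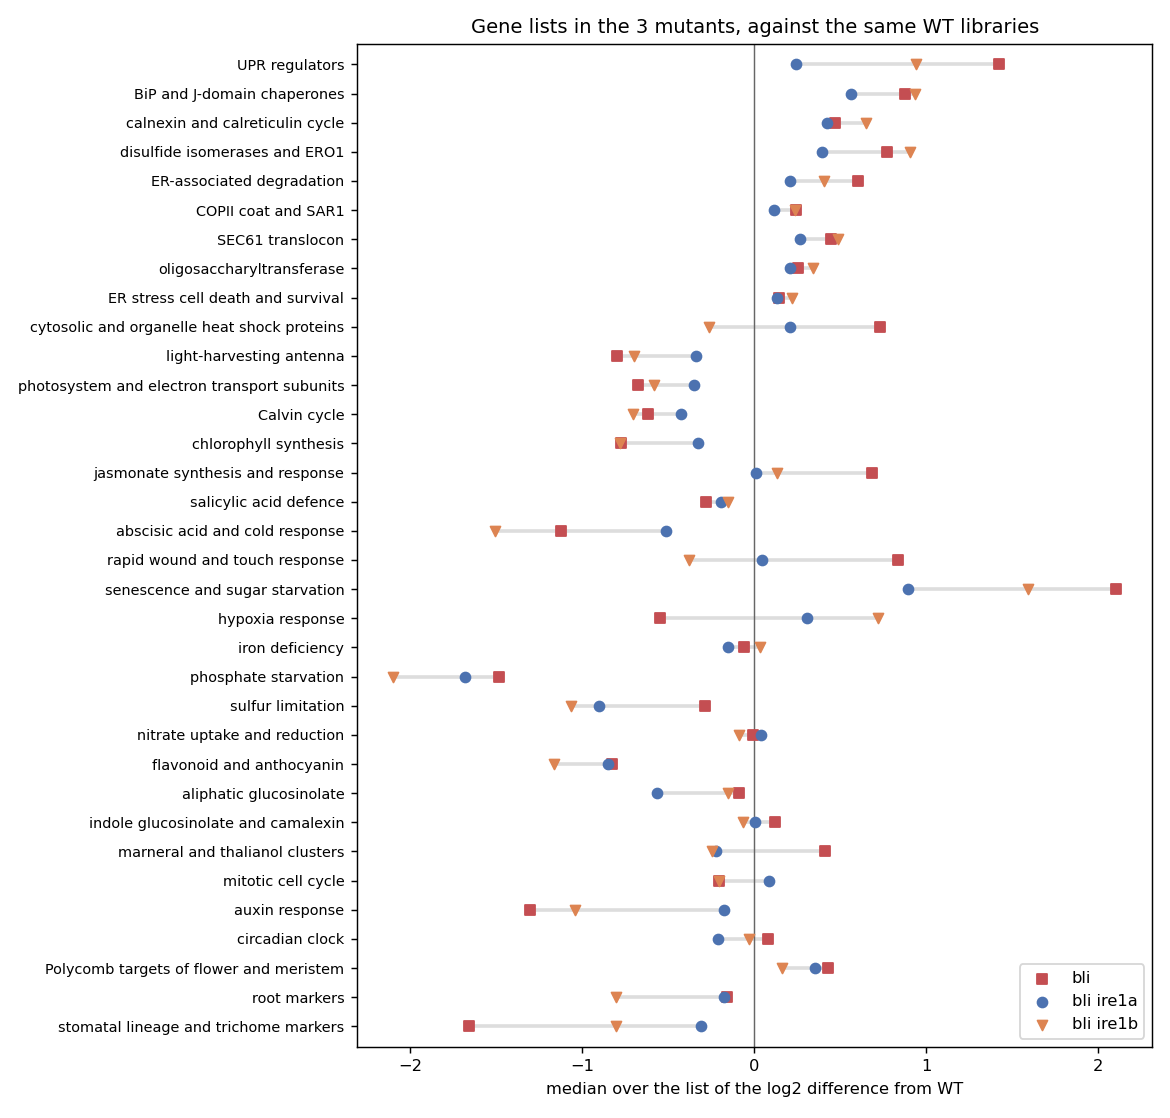
For each of 34 lists, the median over tested members of the log2 difference from WT in *bli* (squares), *bli ire1a* (circles) and *bli ire1b* (triangles); the seed list, with 3 tested genes, is left out. In the UPR, folding, photosynthesis and auxin lists the circle is the point nearest to 0.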

How the data were processed

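RNA from whole seedlings of 4 genotypes, 3 libraries each, was sequenced on the Illumina platform. By the study's methods, the authors used SeqPrep and Sickle to filter reads, TopHat to align them to TAIR10 and Cuffdiff to test expression. The submitters' processing notes instead name Bowtie 0.12.2 and the mouse build mm8. The deposited table gives FPKM per gene. The program that wrote it and the use of strand are not given in the sources used here. Depth per library is not in the table, and relative depth was estimated from the smallest steps between values.

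Genes were tested if their FPKM averaged 0.5 or more over all 12 libraries. The test was run on log2(FPKM + 0.1) with limma 3.58.1 in R 4.3.3, using all 4 genotypes (8 residual degrees of freedom), a mean-variance trend and Benjamini-Hochberg adjustment. The code was tested on simulated data. Gene names came from the RefSeq annotation of TAIR10.1, which held 32810 of the 33557 gene IDs. The 35 gene lists (464 genes) and 17 families were chosen with earlier results of these data known, and 2 of the families (DUF295 and defensins) after their values were seen. Named were the mutated genes, the 15 largest rises and falls without overlap at a mean of at least 1 FPKM, up to 4 members per list by p, and all ER genes. AT1G30160, AT1G05540, *LTP3*, *CCA1*, *RVE8*, *ELF3*, *TOC1* and *MYC2* were named after their values were seen. The replicates are separate samples by the study's methods. The alternatives were other pseudocounts, filters, scalings and fits, a replicate block, and leaving out each library in turn.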

Additional observations from a re-analysis of the deposited data

How the results depend on the processing

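Of 279 named genes, 187 were called, 132 of these under each alternative run, 55 lost the call under at least 1, and 0 reversed; of the 92 not called, 24 were called under some alternative. At the cutoffs of the study, a pseudocount of 1 gave 248 higher and 124 lower genes and no filter on low values gave 329 lower genes. Fits that left out a library of either double mutant gave 474 to 699 higher and 209 to 241 lower genes. By adjusted p from limma they gave 815 to 1272 higher and 558 to 791 lower genes, where the lowest counts were those without *bli ire1a* replicate 2 (815 and 593) and without *bli ire1b* replicate 1 (829 and 558). The ER lists then had 26 to 34 lower genes and a median of -0.26 to -0.20, and the photosynthesis lists 15 to 51 higher genes and a median of 0.24 to 0.34. With no filter the photosynthesis lists had 20 higher genes, and with only the 6 libraries fitted 17. Of 52 medians of lists and families, 8 changed sign under some alternative. The cause of these shifts was not tested.

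The sources used here do not say whether the replicate numbers pair the libraries, and the main fit treats them as unpaired. Deviations of same-numbered libraries correlated weakly, at 0.088, 0.050 and 0.073, and those of differently numbered libraries at -0.066 to -0.003. Each library thus correlated best with its own number. A fit with the replicate number as a block gave 557 higher and 218 lower genes at the cutoffs of the study, and 1518 and 951 by adjusted p from limma. With 3 libraries a genotype and no counts, small differences of weakly expressed genes cannot be resolved, and no interval for counting error can be given.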
